A study of Arabidopsis thaliana with 12 samples.

Results

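The genes described here are those whose array feature gave a strong signal in water-treated Arabidopsis thaliana and carried a single gene name. A member had to be a feature with exactly 1 gene in the platform annotation and a mean deposited intensity of 2 or more over the 6 water samples. Of 3439 features, 189 reached that intensity (5.50%), and of the 692 features with 1 gene 31 did (4.48%). The choice left out 14 genes by name, 5 of them at or over the limit (PSBW, LHB1B2, CYN, XERICO and PSAN), so 26 members remained. Because the water intensities chose the members, levels and ranks in water are a description without a test.

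All 12 samples were total RNA from wild-type plants of the ecotype Wassilevskija. Water was given to the plants of 6 samples, and proline at 100 mM over 3 h to those of the other 6, a treatment the labels describe as reaching toxic cellular proline. The titles state a time for proline alone, so its time and its effect cannot be told apart. The plant part, the age and the origin of the replicates were not stated, so p-values measure only how these samples scatter, which may be technical.

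Proline is an amino acid that plants store under drought and salt and that harms them when supplied in excess. The members do not belong to 1 pathway. They include a subunit of the chloroplast NDH complex, which returns electrons from photosystem I to the plastoquinone pool, an enzyme that makes the defence signal pipecolic acid, a tether of Golgi vesicles and a subunit that shapes the mitochondrial inner membrane. For 23 members the annotation gives a locus number as the only name. The roles stated for them are general knowledge about this plant, and for 6 loci none is stated.

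A feature's intensity depends on the amount of transcript and on the DNA printed at that position, so a rank below is a rank of signal and not of transcript number. Of 17 green tissue markers listed, 6 had a feature with 1 gene. In water these were PSBW at 44.3, LHB1B2 at 13.0, PSAN at 2.71, PRK at 1.93, PSBY at 1.45 and SBPASE at 0. None of the 8 root, 6 pollen or 10 seed markers listed had a feature with 1 gene, so the part of such cells in the results was not tested. Arrays listed 453 to 534 features at 0, a mean of 484 ± 21.2 for water against 506 ± 21.7 for proline (n = 6 a group, SD, p = 0.115 by a two-sided exact permutation test), and no member was among them. In both groups replicates 1 and 2, 3 and 4, and 5 and 6 resembled each other. Results are therefore given also with these replicate pairs averaged.

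Signal among the members fell off steeply from a few very bright features. AT4G31530, with the NAD(P)-binding fold found in many reductases, stood at the ceiling of 100 on all 12 arrays, sharing rank 1, and gives no change. AT4G22830 had a mean of 67.5 ± 6.55 (SD, n = 6) and rank 10, and AT2G27290 one of 52.8 ± 8.48 and rank 11. Next came AT4G17070 with 21.2 ± 2.03, AT3G09080 with 19.7 ± 1.96 and AT5G38360 with 15.7 ± 2.72, at ranks 24, 25 and 32. The others lay between 2.02 and 12.8, at ranks 38 to 189. Together the members held 11.5% to 11.9% of the summed intensity of a water array and 10.1% to 11.3% of that of a proline array.

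**Figure D1:**
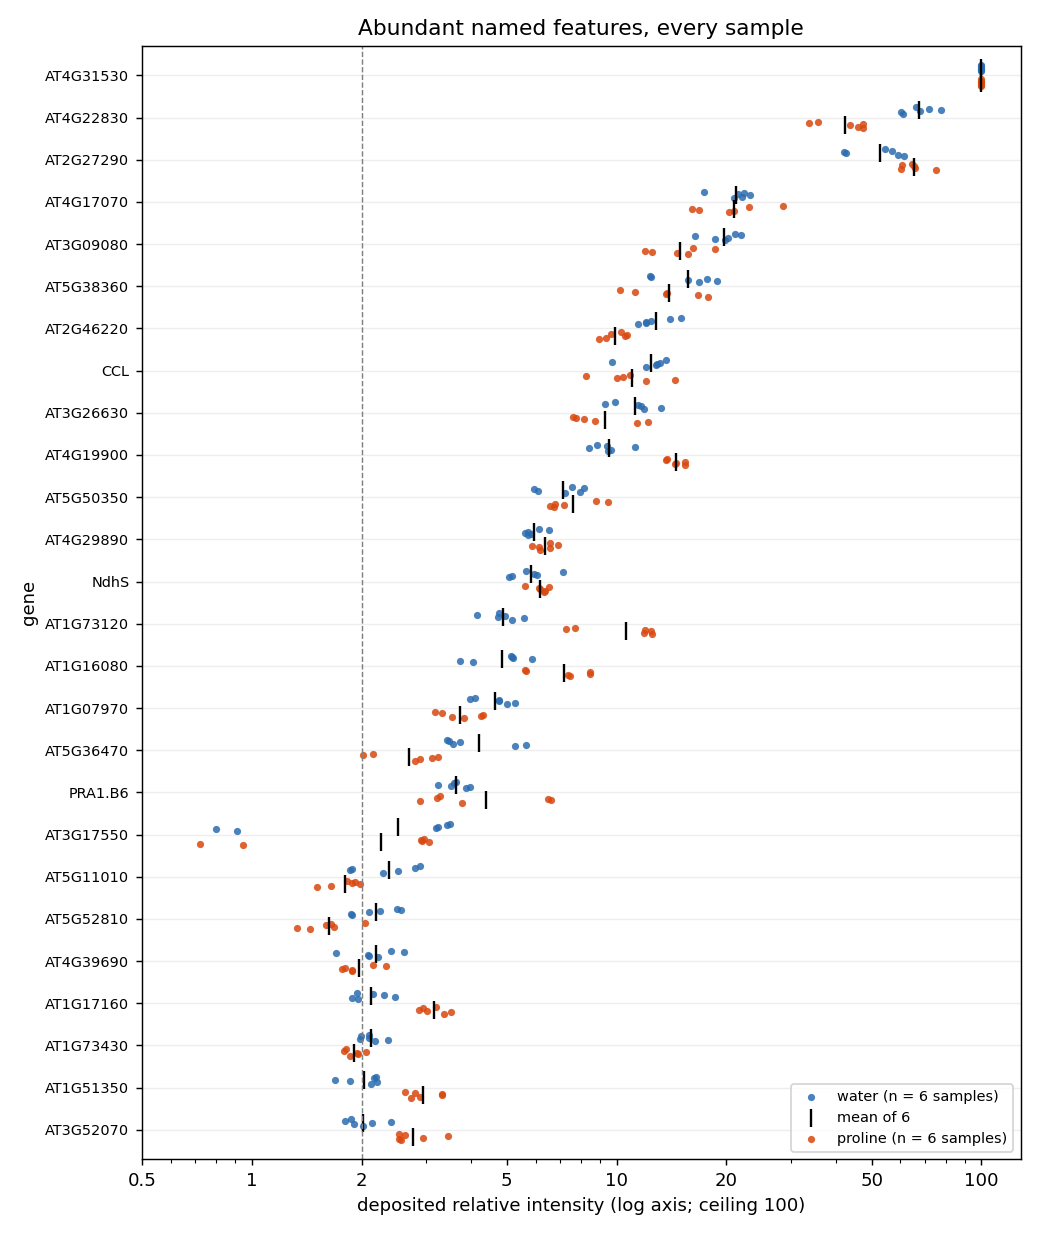
Deposited relative intensity (log axis) of the 26 members in every sample, brightest in water at the top, with water in blue, proline in orange, a black tick at each mean of 6 and a dashed line at the limit of 2. AT4G31530 sits at 100 in every sample, and in AT3G17550 2 samples of each group lie apart from the other 4.

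The limit of 2 ran through a continuous range. Just inside it were AT3G52070 at 2.02 ± 0.223, AT1G51350 at 2.04 ± 0.211 and AT1G73430 at 2.12 ± 0.139 (SD, n = 6). Just outside it were AT3G44020 at 1.96 ± 0.269, PRK, the phosphoribulokinase of the Calvin cycle, at 1.93 ± 0.409 and AT1G32730 at 1.92 ± 0.510. Among the 25 members below the ceiling, the coefficient of variation over the water samples had a median of 11.1%, from 5.79% for AT4G29890 to 51.3% for AT3G17550. Under proline the median was 14.3%, from 5.15% for AT4G19900 to 49.0% for AT3G17550. Over all tested features these medians were 17.6% and 19.7%, and over the 161 other features of 2 or more that were not at the ceiling on every array 12.4% and 13.9%.

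Of the 25 members below the ceiling, 5 rose and 10 fell after proline, and 10 did not pass. The 15 that passed are 60% of the members, where 44.1% of the 2861 tested features passed, 18.3% higher and 25.9% lower (limma on quantile-normalized log2 intensities, adjusted p under 0.05). Of those 161 other bright features 47.8% passed, 13% higher and 34.8% lower. In such bulk RNA, fewer cells of a type and less RNA per cell cannot be told apart. A change of at least 1.5-fold that also passed was found for 4 members, 1 higher and 3 lower, where 28.8% of all tested features had one. The members' log2 changes ran from -0.84 to 0.90 with a median absolute size of 0.37, against 0.43 over all tested features and 0.36 over the other bright ones. Their signed median was -0.18, beside -0.12 and -0.22.

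The water level that chose the members also enters the comparison, so the counts were repeated with other choices. With features of 1 gene chosen by a mean of 2 or more under proline, 15 of 36 rose and 6 fell. With the choice on the mean over all 12 samples, 11 of 31 rose and 9 fell. A choice by proline mean takes in features because they are high under proline, so it favours rises, as the choice by water mean favours falls. The balance of rises and falls thus depends on how members are chosen and is no result about the members.

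After pair averaging, which leaves 3 values a group, 4 of the 25 members passed, against 23.1% of all tested features. These were AT1G73120 and AT4G19900, which rose, and AT4G22830 and AT5G52810, which fell. With the pair as a random block 10 members passed, 2 higher and 8 lower, where 31% of all tested features did, 13.7% higher and 17.3% lower. The 5 calls lost there were those of AT3G09080 (adjusted p = 0.0569), AT1G51350 (0.0639), AT1G17160 (0.0696), AT4G39690 (0.0900) and AT2G27290 (0.125). Blocked on the replicate number, 15 members passed, 3 of them higher, where 47.5% of all tested features did, 20.3% higher. At an adjusted p under 0.01, 9 members passed, 2 of them higher, where 30.8% of all tested features did, 13.7% higher.

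**Figure D2:**
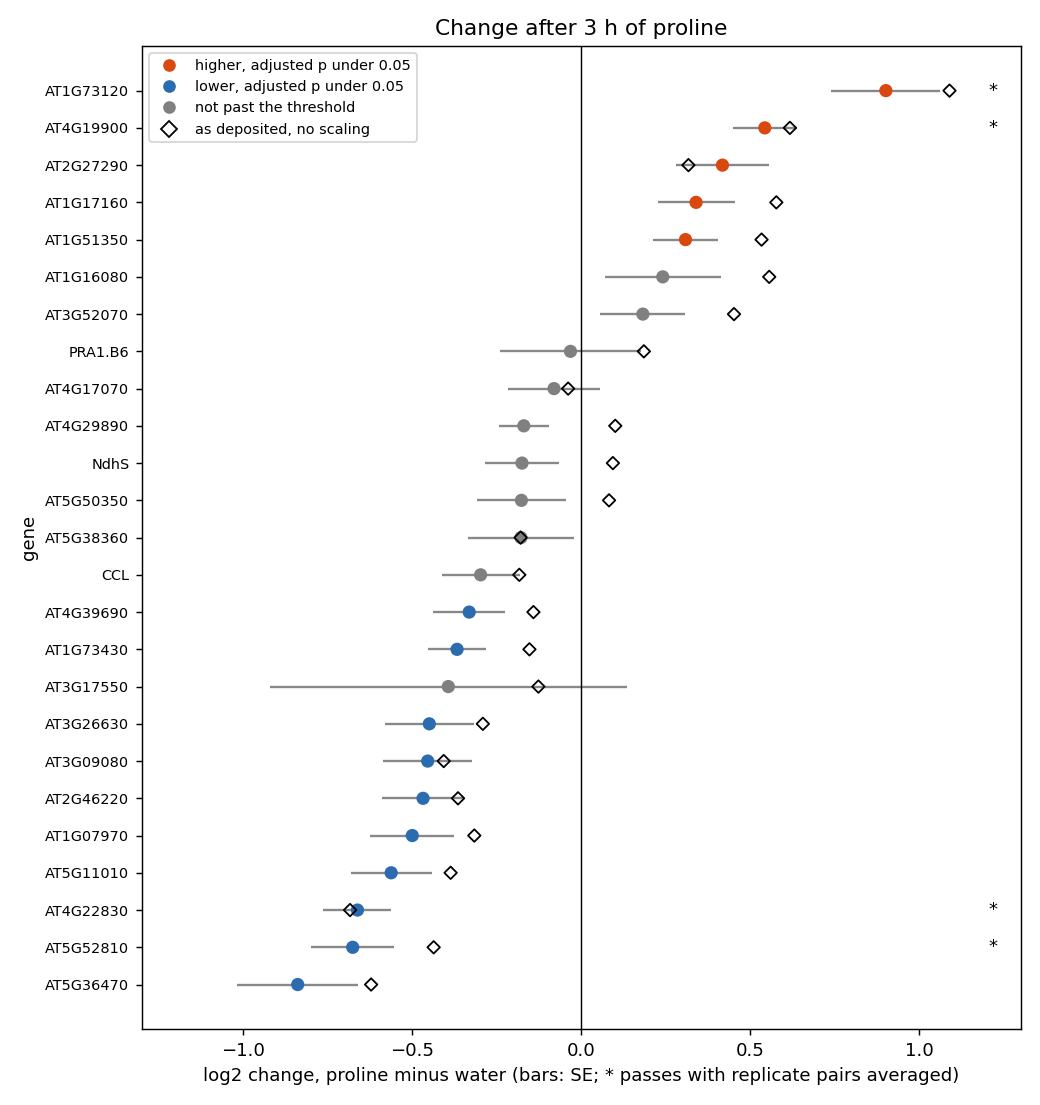
Log2 change from water to proline for the 25 members below the ceiling, with bars of 1 SE (n = 6 a group), filled circles for the quantile-normalized values and open diamonds for the values as deposited. Orange marks the 5 that rose and blue the 10 that fell, and an asterisk marks the 4 that passed with replicate pairs averaged.

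Of the 3 members grouped as plastid or photosynthesis proteins, 2 fell and 1 did not pass, while the plastid kinase AT1G17160, which rose, is described with the enzymes. AT4G22830, related to the YCF49 family of cyanobacteria and plastids, ran from 60.2 to 77.5 in water, with a median of 67.1, and from 33.7 to 47.3 under proline, with a median of 44.7. Every proline sample lay under every water sample, and replicates 5 and 6 under proline were the lowest, at 33.7 and 35.7. It fell 1.58-fold (log2 -0.66 ± 0.10 SE, adjusted p = 2.42e-04), with -0.42, -0.62 and -0.95 in the 3 replicate pairs, and left rank 10 for rank 16. Pair averaging gave an adjusted p of 0.0307, or 0.0504 with a pair term added.

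AT3G26630, a pentatricopeptide repeat protein of the kind that binds organelle RNA, ran from 9.32 to 13.2 in water (median 11.6) and from 7.60 to 12.2 under proline (median 8.44). The groups overlapped: proline replicates 1 and 2 lay above water replicates 5 and 6. It fell 1.37-fold (log2 -0.45 ± 0.13 SE, adjusted p = 0.0148). That call was lost in the values as deposited (log2 -0.29, adjusted p = 0.122), after cyclic loess (-0.31, 0.0878), after pair averaging (adjusted p = 0.140) and with replicates 3 and 4 removed (-0.35, 0.163). NdhS, the subunit of the NDH complex that binds ferredoxin, ran from 5.07 to 7.11 in water (median 5.79) and from 5.60 to 6.55 under proline (median 6.24), with overlap. Its log2 change was -0.18 (95% interval -0.41 to 0.06, adjusted p = 0.215), and 0.094 in the values as deposited (adjusted p = 0.447).

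Of the 6 enzymes, 2 rose, 1 fell, 2 did not pass and AT4G31530 was at the ceiling. AT4G19900, of a family of alpha-glycosyltransferases, ran from 8.39 to 11.2 in water with a median of 9.44, and from 13.7 to 15.4 under proline with a median of 14.5. The groups did not overlap. It rose 1.46-fold (log2 0.54 ± 0.095 SE, adjusted p = 6.67e-04), by 0.46, 0.66 and 0.52 in the pairs, and its rank moved from 49 to 31. Pair averaging gave an adjusted p of 0.0415, or 0.0527 with a pair term added.

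AT5G52810 encodes the reductase that completes the synthesis of pipecolic acid, a cyclic amino acid made from lysine that acts in systemic acquired resistance. It ran from 1.87 to 2.56 in water with a median of 2.17, and from 1.33 to 2.05 under proline with a median of 1.62. As deposited, proline replicate 6, the highest of its group, lay above water replicates 1 and 2, but after normalization the groups did not overlap. It fell 1.60-fold (log2 -0.68 ± 0.12 SE, adjusted p = 8.38e-04), with -0.65, -0.68 and -0.69 in the pairs. The fall passed after pair averaging (adjusted p = 0.0393) and with a pair term added (0.0323), and was -0.44 in the values as deposited (adjusted p = 0.0133). Its rank moved from 171 to 263, farther than that of any of the other 24 members below the ceiling.

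AT1G17160, a plastid kinase that phosphorylates ribose, ran from 1.89 to 2.47 in water (median 2.05) and from 2.87 to 3.51 under proline (median 3.12), without overlap. After normalization the groups did overlap: water replicate 3, at 1.56 on the log2 scale, lay above proline replicates 3 to 6, at 1.42 to 1.52. The normalized rise of AT1G17160 was 1.27-fold (log2 0.34 ± 0.11 SE, adjusted p = 0.0283), while the values as deposited differed by 0.58 (adjusted p = 3.61e-04). The pairs differed among themselves, at 0.67, 0.01 and 0.35. The call was lost when blocked on the replicate number (adjusted p = 0.0602), after pair averaging (0.1998), and on leaving out any single one of water replicates 1, 2 and 6 and proline replicates 1 and 2, where log2 changes were 0.30 to 0.32 and adjusted p 0.0543 to 0.0612. With replicates 1 and 2 removed from both groups the change was 0.19 (adjusted p = 0.307), and with replicates 5 and 6 removed 0.34 (0.119).

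Both other enzymes had overlapping groups. AT5G38360, an alpha/beta hydrolase, ran from 12.4 to 18.8 in water (median 16.3) and from 10.2 to 17.8 under proline (median 13.7), with a log2 change of -0.18 (95% interval -0.52 to 0.16, adjusted p = 0.383). AT4G29890 is named for its likeness to choline monooxygenase, which in spinach begins the synthesis of the osmoprotectant glycine betaine. It was among the steadiest members, at 5.93 ± 0.343 in water against 6.36 ± 0.376 under proline (SD, n = 6). Its log2 change was -0.17 (95% interval -0.33 to -0.01, adjusted p = 0.0831), -0.22 without proline replicate 5 (adjusted p = 0.0312), and 0.10 in the values as deposited (adjusted p = 0.301). With the replicate number as a random block it passed (adjusted p = 0.0472), and after pair averaging it did not (0.381).

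Of the 3 members in membrane traffic or the mitochondrial inner membrane, 2 fell and 1 did not pass. AT1G73430 encodes a subunit of the conserved oligomeric Golgi complex, which tethers vesicles returning to the Golgi. It varied little, from 1.98 to 2.36 in water (median 2.09) and from 1.79 to 2.06 under proline (median 1.90), and only proline replicate 4 reached into the water range. After normalization the groups did not overlap. It fell 1.29-fold (log2 -0.37 ± 0.087 SE, adjusted p = 0.00457). The call was lost in the values as deposited (-0.15, adjusted p = 0.121), after pair averaging (0.114) and with replicates 1 and 2 removed (-0.32, 0.0631).

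AT4G39690, a core subunit of the complex that forms cristae junctions, ran from 1.70 to 2.61 in water (median 2.16) and from 1.77 to 2.34 under proline (median 1.89), with wide overlap. It fell 1.26-fold (log2 -0.33 ± 0.11 SE, adjusted p = 0.0235). The call was lost in the values as deposited (-0.14, adjusted p = 0.347), after cyclic loess (-0.26, 0.0609), after pair averaging (0.169), and with replicates 1 and 2 (-0.31, 0.123) or 3 and 4 (-0.37, 0.0626) removed.

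PRA1.B6, a prenylated Rab acceptor of the early secretory pathway, differed between replicate pairs. Water samples were close together, from 3.24 to 3.97 with a median of 3.60. Under proline replicates 3 and 4 stood at 6.63 and 6.48 and the other 4 between 2.89 and 3.76. Its log2 change was -0.03 (95% interval -0.48 to 0.42, adjusted p = 0.918), made of -0.40, 0.70 and -0.39 in the pairs. With replicates 3 and 4 removed it was -0.39 (adjusted p = 0.0299), and with replicates 1 and 2 or 5 and 6 removed 0.15 (0.690 and 0.696).

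Of the 6 members in RNA, folding, scaffold or regulatory roles, 1 rose, 2 fell and 3 did not pass. AT1G51350, an armadillo-repeat protein, ran from 1.69 to 2.20 in water (median 2.14) and from 2.63 to 3.32 under proline (median 2.84), without overlap. It rose 1.24-fold (log2 0.31 ± 0.096 SE, adjusted p = 0.0200), and by 0.53 in the values as deposited (adjusted p = 9.64e-04). The call was lost when blocked on the replicate number (adjusted p = 0.0543), after pair averaging (0.187), and with replicates 1 and 2 (0.36, 0.0655) or 3 and 4 (0.16, 0.239) removed.

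AT3G09080, a WD40-repeat protein, ran from 16.4 to 21.9 in water (median 20.02) and from 11.99 to 18.6 under proline (median 15.2), where proline replicate 5 lay above water replicate 4. It fell 1.37-fold (log2 -0.45 ± 0.13 SE, adjusted p = 0.0142), with an adjusted p of 0.121 after pair averaging and 0.104 with replicates 3 and 4 removed (log2 -0.38). AT5G11010, of a polynucleotide kinase-like family, ran from 1.86 to 2.89 in water (median 2.40) and from 1.51 to 1.98 under proline (median 1.85). Water replicates 3 and 4 were low and overlapped the proline samples as deposited, but not after normalization. It fell 1.48-fold (log2 -0.56 ± 0.12 SE, adjusted p = 0.00237), with -0.76, -0.16 and -0.76 in the pairs and an adjusted p of 0.0704 after pair averaging.

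CCL, whose transcript cycles with the circadian clock and turns over fast, ran from 9.69 to 13.7 in water (median 12.9) and from 8.26 to 14.4 under proline (median 10.7), with overlap. Its log2 change was -0.30 (95% interval -0.55 to -0.05, adjusted p = 0.0531). It passed when blocked on the replicate number (adjusted p = 0.0340), without water replicate 5 (-0.36, 0.0251) and without proline replicate 2 (-0.35, 0.0304). It did not pass after pair averaging (0.178, or 0.207 with a pair term added) or with the pair as a random block (0.223). AT4G17070, related to the peptidyl-prolyl isomerases that help proteins fold, ran from 17.4 to 23.2 in water (median 21.8) and from 16.1 to 28.6 under proline (median 20.7), the proline samples spanning the whole water range. Its log2 change was -0.08 (95% interval -0.38 to 0.22, adjusted p = 0.663).

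AT3G17550, a phosphatase-like protein of the haloacid dehalogenase superfamily, had the widest spread of the 25 members. Replicates 1 and 2 had 0.913 and 0.796 in water and 0.949 and 0.721 under proline, whereas the other 4 ran from 3.19 to 3.498 in water and from 2.91 to 3.07 under proline. Its log2 change was -0.39 (95% interval -1.54 to 0.76, adjusted p = 0.577), although the pairs changed by -0.33, -0.37 and -0.48. Blocking on the replicate number gave an adjusted p of 0.00579, and with replicates 1 and 2 removed the change was -0.43 (0.00794). It did not pass after pair averaging (0.731, or 0.103 with a pair term added) or with the pair as a random block (0.631).

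The 2 members with conserved domains of unknown function changed in opposite directions. AT2G27290, of the FAM210 family known from animal mitochondria, ran from 42.0 to 61.4 in water (median 55.7) and from 60.1 to 74.9 under proline (median 64.8). Water replicate 1 overlapped proline replicates 2 and 5, and water replicates 3 and 4 were the lowest. It rose 1.34-fold (log2 0.42 ± 0.14 SE, adjusted p = 0.0254). The call was lost without water replicate 3 (0.35, 0.0609) or 4 (0.34, 0.0626) or proline replicate 1 (0.36, 0.0524), after median scaling (0.12, 0.416) and after pair averaging (0.125), and with replicates 3 and 4 (0.29, 0.153) or 5 and 6 (0.42, 0.104) removed. AT2G46220 ran from 11.4 to 15.0 in water (median 12.2) and from 8.96 to 10.7 under proline (median 9.99), without overlap. It fell 1.38-fold (log2 -0.47 ± 0.12 SE, adjusted p = 0.00732), with an adjusted p of 0.116 after pair averaging and 0.0538 with replicates 5 and 6 removed (log2 -0.39).

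Of the 6 members with no role stated, 1 rose, 2 fell and 3 did not pass. AT1G73120 had the largest rise of the 25, from 4.14 to 5.57 in water, with a median of 4.86, to 7.26 to 12.5 under proline, with a median of 11.9. The groups did not overlap, and proline replicates 5 and 6 were low at 7.26 and 7.69 while the other 4 lay between 11.9 and 12.5. It rose 1.87-fold (log2 0.90 ± 0.16 SE, adjusted p = 7.60e-04), by 0.94, 1.20 and 0.56 in the pairs, with an adjusted p of 0.0359 after pair averaging. Its rank moved from 89 to 54.

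AT5G36470 had the largest fall. Water samples ran from 3.43 to 5.65 with a median of 3.63, replicates 1 and 2 standing apart at 5.28 and 5.65, and proline samples from 2.02 to 3.24 with a median of 2.85. The groups did not overlap. It fell 1.79-fold (log2 -0.84 ± 0.18 SE, adjusted p = 0.00237), with -1.15, -0.44 and -0.93 in the pairs. Pair averaging gave an adjusted p of 0.0610, or 0.0408 with a pair term added. AT1G07970 ran from 3.96 to 5.26 in water (median 4.76) and from 3.17 to 4.30 under proline (median 3.68), where proline replicates 3 and 4 lay above water replicates 5 and 6. It fell 1.41-fold (log2 -0.50 ± 0.12 SE, adjusted p = 0.00610), or by 0.32 on the log2 scale in the values as deposited (adjusted p = 0.0341), with an adjusted p of 0.105 after pair averaging and 0.0770 with replicates 1 and 2 removed (log2 -0.43).

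AT1G16080 and AT3G52070 passed on some scales and not on others. AT1G16080 had 4.86 ± 0.815 in water against 7.16 ± 1.28 under proline (SD, n = 6), and AT3G52070 had 2.02 ± 0.223 against 2.77 ± 0.368. The groups of AT3G52070 did not overlap as deposited but did after normalization. Log2 changes of AT1G16080 and AT3G52070 were 0.24 and 0.18 after quantile normalization (95% intervals -0.13 to 0.61 and -0.09 to 0.46, adjusted p = 0.277 and 0.263). In the values as deposited they were 0.56 and 0.45 (adjusted p = 0.0102 and 0.00473), and after cyclic loess 0.51 and 0.34 (0.0215 and 0.0391). AT5G50350 had 7.14 ± 0.933 in water against 7.59 ± 1.24 under proline, with a log2 change of -0.18 (95% interval -0.46 to 0.11, adjusted p = 0.302), and of -0.31 with replicates 5 and 6 removed (0.0421).

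**Figure D3:**
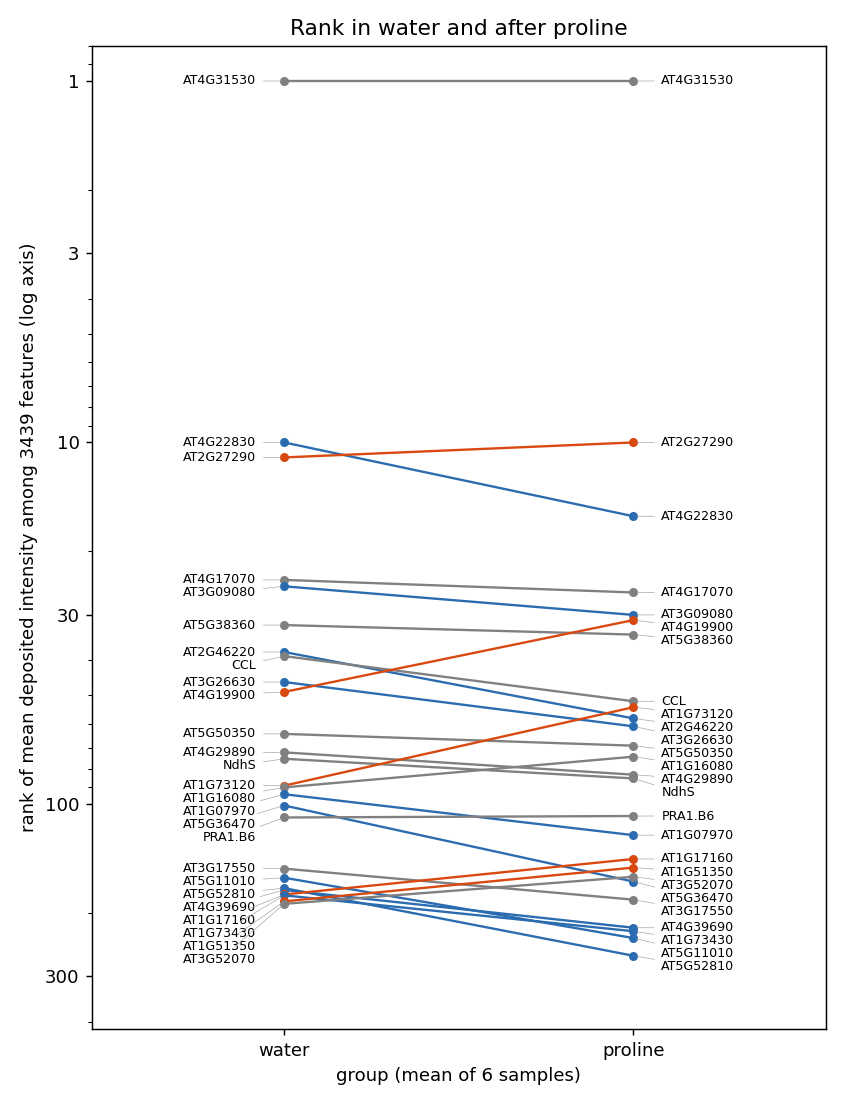
Rank of the mean deposited intensity among 3439 features (log axis, rank 1 at the top) for the 26 members in water and after proline, each a mean of 6 samples. Orange lines are members that rose, blue lines members that fell and grey lines the others. Counted in places, AT5G52810 (from 171 to 263) and AT5G11010 (from 160 to 235) moved down most. On the log axis the steepest lines down are those of AT5G36470 from 101 to 164 and AT4G22830 from 10 to 16.

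The order of the members by signal was largely kept. Across the 25 below the ceiling the water and proline means had a Spearman correlation of 0.90, a description only, since the points share their arrays. Means stayed at 2 or more under proline for 22 of 26 members. The 4 that came under it were AT5G11010, AT5G52810, AT4G39690 and AT1G73430. They had means of 2.12 to 2.37 in water, near the limit, and the choice by water mean favours such falls.

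In the values as deposited 14 of 25 members passed, 7 higher and 7 lower, where 41.4% of all tested features did, 24.5% higher and 16.9% lower. Quantile normalization moved the median log2 change over all tested features from 0.06 to -0.12. Relative to that median 9 members lay above and 16 below after quantile normalization, and 11 above and 14 below in the values as deposited. After cyclic loess these counts were 12 and 13, and after median scaling 11 and 14. Deposited intensities of the groups did not overlap for 8 of 25 members, 5 higher and 3 lower, where the background over features with a value on every array was 25.7%, 18.2% higher and 7.52% lower.

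**Figure D4:**
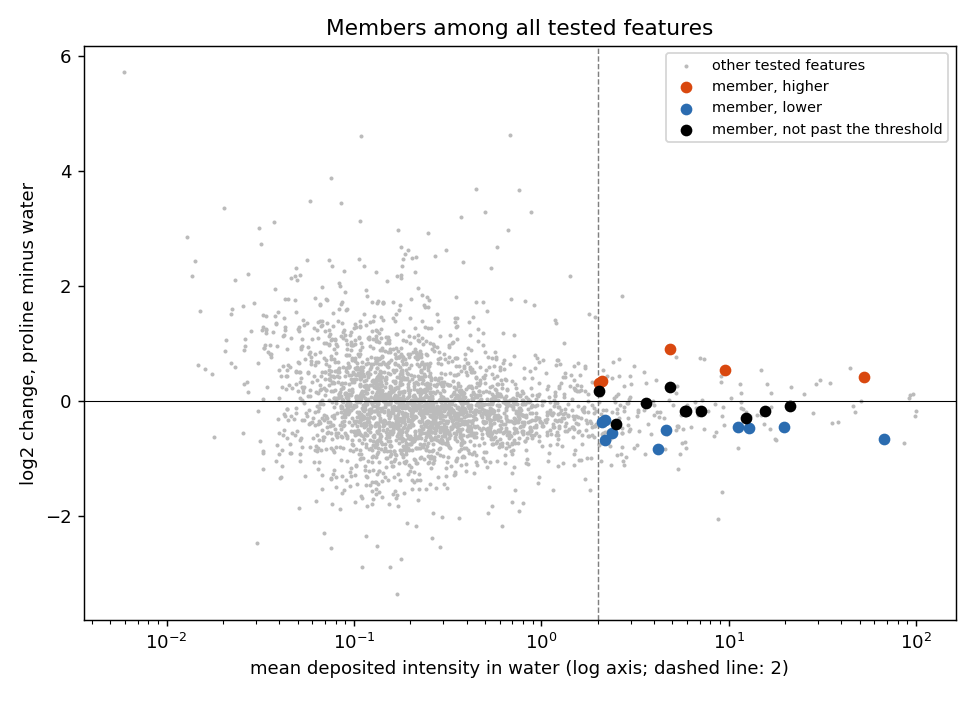
Log2 change from water to proline against mean deposited water intensity (log axis) for the tested features not at the ceiling on every array, in grey, with the 25 members coloured by their call. The members, right of the dashed line at 2, lie between -0.84 and 0.90.

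Replicates of a pair were alike in most members. Over the 25 members and both groups, the median log2 difference within a pair was 0.077, while the pair means of a group spanned a median of 0.37. In 36 of these 50 groups the pair means spanned more than the largest difference within a pair. Such spreads were worked out for the members alone, so they do not set the members apart from other features. In 19 of 25 members the 3 pairs changed the same way, as they did in 62.8% of the features with a value for each pair.

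**Figure D5:**
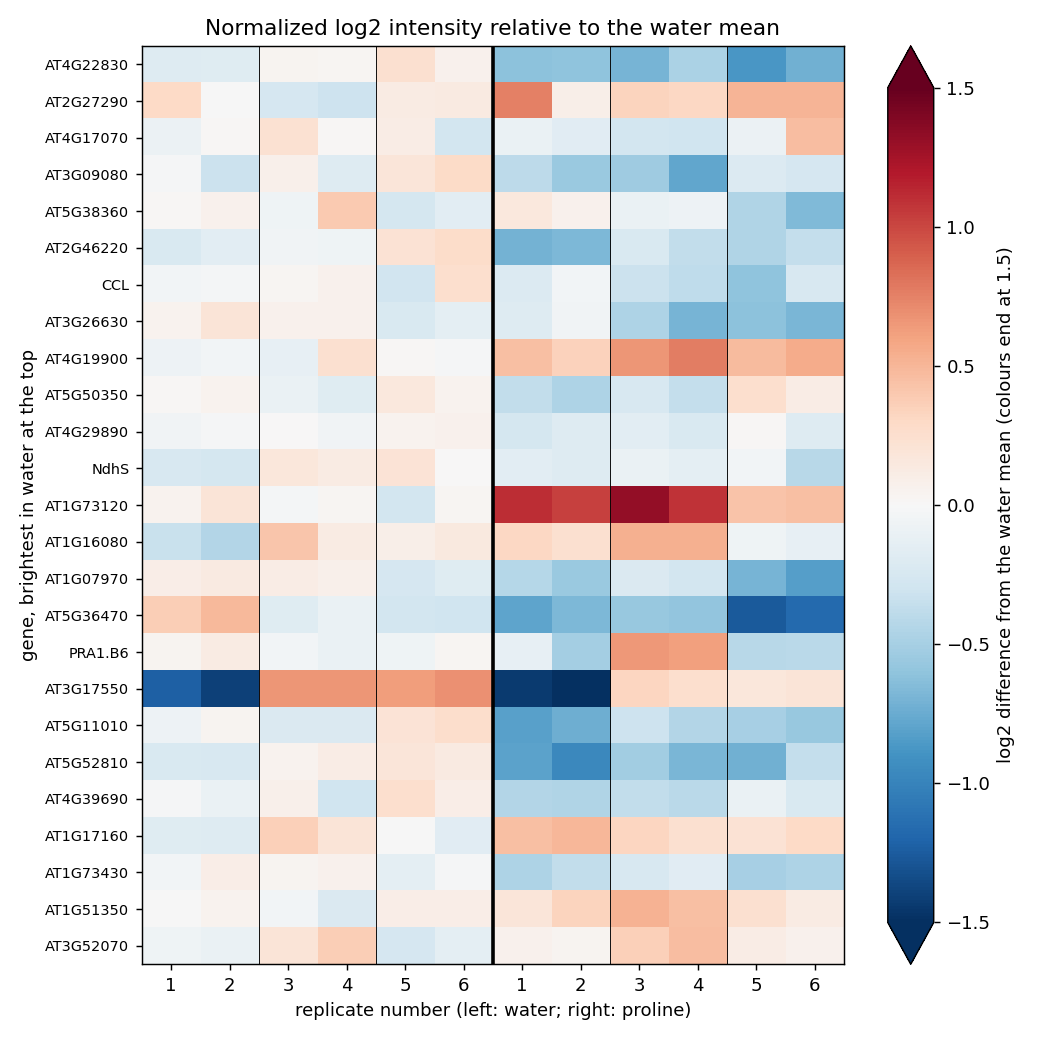
Normalized log2 intensity of the 25 members in each sample minus the member's water mean, with water replicates 1 to 6 left of the thick line and proline replicates 1 to 6 right of it, and thin lines between successive pairs. Red is higher and blue lower, AT3G17550 is low in replicates 1 and 2 of both groups, and PRA1.B6 is high in proline replicates 3 and 4.

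For 3 members another feature carries the same gene together with further genes, and none of these features gave the result of the member's own. The feature of AT4G31530, AT5G02240 and AT2G37660 fell from 1.66 ± 0.320 to 1.19 ± 0.194 (SD, n = 6, log2 -0.75, adjusted p = 0.00255), where AT4G31530's own was at the ceiling. The feature of AT2G46220, AT1G79510 and AT1G16320 rose from 0.156 ± 0.0369 to 0.325 ± 0.0913 (log2 0.91, adjusted p = 0.00319), opposite to the fall of AT2G46220's own. That shared feature was dim, where AT2G46220's own had a mean of 12.8 in water. The feature of AT3G26630 and AT2G42920 had 0.124 ± 0.0379 in water against 0.108 ± 0.0368 under proline (log2 -0.19, adjusted p = 0.632). Which gene gives the signal of a shared feature was not tested.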

How the data were processed

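Per the labels, 12 arrays were grouped by sample title. The deposited values are intensity, which by its range is linear, from 0 to a ceiling of 100. None of the sources used here says how the authors scaled it. Zeros were set to missing, and values were put on the log2 scale and quantile normalized. The 2861 features with at least 4 of 6 values in each group were compared by limma 3.58.1 (lmFit, eBayes, no block) in R 4.3.3, with statmod 1.5.0 for random blocks. Tests were two-sided and p-values adjusted over all these features (Benjamini-Hochberg, threshold 0.05). Levels, ranges and overlap between groups are those of deposited intensities unless normalization is named, while folds, SE and 95% intervals come from normalized values. The number of arrays limits the precision. All 26 members were found in the TAIR10.1 table. The fit was tested on simulated data.

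Replicate numbers 1 to 6 occur in both groups. Deviations of same-numbered samples correlated at 0.184 to 0.403 over 2674 features, so fits blocked on the replicate number were also run. That block rests on the data, since the labels do not explain the numbers. Calls, counts and figure colours are those of the fit without a block unless another fit is named. The fit without a block counts 6 separate samples a group, so its p-values may be too small where replicate pairs are alike. The p with the replicate number as a fixed block is given where it changes a call.

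Members, lists and tests were chosen with earlier results of these data known. Named with their range over samples were the 6 brightest members, those called (at most 10 in each direction) and any at the ceiling. Named by mean were the 3 features on either side of the limit, up to 4 of each functional list and the 6 members with the smallest change. Other members were added after values were seen. The words fixed for functional lists matched 1 of 26 members, so the grouping by role was made by hand after values were seen. Promoter motifs were not analysed here.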

Additional observations from a re-analysis of the deposited data

Results flagged for a closer look

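Of 50 groups of 6 normalized values, 1 contained a stray sample by Dixon's criterion. Independent values would give about 2.5, but replicates of a pair resembled each other and the groups share arrays. In AT4G17070 proline replicate 6 stood at 4.90 on the normalized log2 scale, while the remaining 5 lay between 4.14 and 4.36.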

How the results depend on the processing

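Pairing by replicate number gave 15 members called with the replicate block as a fixed term, 3 of them higher, and 1360 of the 2861 features. Pair averaging gave 661 calls over all features and 4 among members (2 higher, 2 lower), with a pair term 692 and 3 (1 higher, 2 lower), and the pair as a random block 2 higher among members. Removing the pair 1 and 2, 3 and 4 or 5 and 6 left 11, 11 and 13 of the 25 members called, with 3, 3 and 3 higher. Over all features 1054 of 2847, 972 of 2833 and 1075 of 2833 were then called, with 449, 433 and 473 higher. An adjusted p under 0.01 gave 9 members, 2 higher, and 880 of the 2861 features. A fold of at least 1.5 gave 825 features and 4 members (1 higher, 3 lower). Members chosen by proline mean, which favours rises, gave 15 higher and 6 lower of 36, and by the mean over all samples 11 higher of 31. A water mean of 4 or more gave 9 called of 16, 3 higher and 6 lower. Over all features 1263 of 2861 were called, 523 higher and 740 lower. Leaving out single samples gave 3 to 5 of the 25 members higher, where 492 to 520 of 2822 to 2856 tested features were higher. Among the called features, 41.4% were higher after quantile normalization, 59.2% as deposited, 49.7% after cyclic loess and 38.2% after median scaling.

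Some members that did not pass changed sign, and the cause was not tested. As deposited and after cyclic loess, log2 changes were 0.094 and 0.046 for NdhS, 0.082 and 0.046 for AT5G50350, 0.10 and 0.054 for AT4G29890, and 0.19 and 0.11 for PRA1.B6. AT4G17070 had 0.077 without pair 3 and 4. PRA1.B6 had 0.15 without pair 1 and 2, 0.15 without pair 5 and 6, and -0.17 to 0.065 on leaving out single samples. Over the 28 settings AT1G73120 and AT5G52810 stayed past the threshold in each, and AT5G38360 under it. With single samples left out 286 member values kept sign and call, 8 lost the call, 3 gained it and 3 changed sign. Under the other settings these numbers were 327, 49, 13 and 11. Signal over background was not stated, so its limit on dim features is unknown.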

Other observations

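Beyond the members, 15 features with 1 gene were under 2 in water and at 2 or more under proline. Since a higher proline mean chose them, their levels are a description without a test. AT5G06010 had 0.694 in water against 2.85 under proline, AT5G38310 had 1.26 against 2.33, AT3G26580 had 1.86 against 2.03 and AT1G32730 had 1.92 against 2.05. These 4 were picked after their values were seen.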
